A study of Mus musculus with 6 samples.

Results

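P-type ATPases are ion and lipid pumps that hydrolyse ATP and pass through a phosphorylated intermediate. They were examined together with the Fxyd proteins, small membrane proteins that regulate the sodium pump. The genes were taken by symbol, as the catalytic families Atp1a, Atp2a, Atp2b, Atp2c, Atp4a, Atp7, Atp8 to Atp11, Atp12a and Atp13a, the beta subunits (Atp1b genes and Atp4b) and Fxyd1 to Fxyd7. This rule found 49 of the 34745 genes in the table. RNA had been sequenced from the prostates of male C57BL/6 mice that were 6 to 8 weeks old at the start. In the T + E2 group 3 mice carried 1 slow-release pellet of testosterone and estradiol under the skin for 12 weeks, exchanged every month, and in the control (CON) group 3 mice had only the skin incision, repeated in the same way. Each library came from a separate animal with no genetic change, and the question was how these transporter genes differ after hormone-induced enlargement of the prostate.

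The families share a catalytic cycle but move different cargo. Na,K-ATPase exports sodium and imports potassium and needs an alpha and a beta subunit, while H,K-ATPases export protons in exchange for potassium. SERCA, plasma membrane and secretory pathway pumps move calcium, Atp7a and Atp7b move copper, P4 ATPases flip phospholipids between membrane leaflets, and P5 ATPases act on polyamines or on membrane proteins. In the prostate, ion pumps serve the epithelium that forms the ionic composition of prostatic fluid.

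Each library held 14816146 to 16555549 counts on genes. Member genes took 0.396 to 0.432% of the counts in CON mice and 0.498 to 0.539% in T + E2 mice. The prostate transcription factor gene Hoxb13 was present in every mouse (389 to 472 CPM). Of 6 prostate luminal markers 2 were higher and 2 lower, and their summed level was 38900 to 52100 CPM in CON and 16400 to 18300 CPM in T + E2, led by falls of the secretory genes Pbsn (-3.29) and Tgm4 (-2.91 on the log2 scale). Transcripts of seminal vesicle secretory genes stood apart in the mice numbered replicate 2, with summed levels of 10300 CPM in CON and 642 CPM in T + E2, against 0.629 to 3.84 CPM in the other mice. Urothelium markers were higher in T + E2 for 3 of the 3 tested, and their summed level was 422 to 642 CPM in CON and 1370 to 1700 CPM in T + E2. Epithelium markers summed to 2150 to 2450 CPM in CON and 2520 to 2610 CPM in T + E2, with 2 of 6 higher and 1 lower. Among all tested genes 10.4% were higher and 9.25% lower. In whole tissue, fewer cells of a type and less RNA per cell cannot be told apart.

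Among the members the P5 ATPase gene Atp13a4 gained most, from 0.871 ± 0.452 to 165 ± 33.4 CPM (mean ± SD, n = 3 per group), followed on the log2 scale by Fxyd4 (4.25), Atp13a5 (3.54) and the gastric proton pump gene Atp4a (3.45). The other H,K-ATPase gene, Atp12a, fell most (-2.78). Of the sodium pump beta subunits, Atp1b3 was higher and Atp1b2 lower in T + E2. Of the 49 members, 44 had enough counts to be tested. The quasi-likelihood test of edgeR was fitted on 15580 genes, with p-values adjusted over all of them by the Benjamini-Hochberg method. At an adjusted p under 0.05, 25 members differed (19.6% of all tested genes did). Of these, 14 were higher in T + E2 (10.4% of all tested genes) and 11 were lower (9.25%), while 19 did not pass. With a log2 fold change beyond 1 in either direction as well, 14 members were differentially expressed genes (DEGs; 7.64% of all tested genes), of which 8 rose (4.27%) and 6 fell (3.38%). The median log2 fold change was 0.06 over the 44 members and -0.002 over all tested genes. In 28 members every mouse of one group lay above every mouse of the other (40.7% of all tested genes), with T + E2 on top in 16 (20% of all tested genes) and CON on top in 12 (20.7%). Without both mice that carried seminal vesicle transcripts, 9 members were higher and 4 were lower, while over all 15646 genes tested there the calls also dropped, from 1620 to 822 higher and from 1441 to 532 lower. Across settings with a single mouse left out the counts also shrank: 9 were higher without CON replicate 3, and 6 were lower without CON replicate 1, CON replicate 2 or T + E2 replicate 1, and 7 without CON replicate 3 or T + E2 replicate 2. DEGs that fell numbered 3 without CON replicate 1 and 2 without CON replicate 2 or T + E2 replicate 1. Over all genes the same fits gave 1095 to 1474 higher and 834 to 1267 lower.

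**Figure D1:**
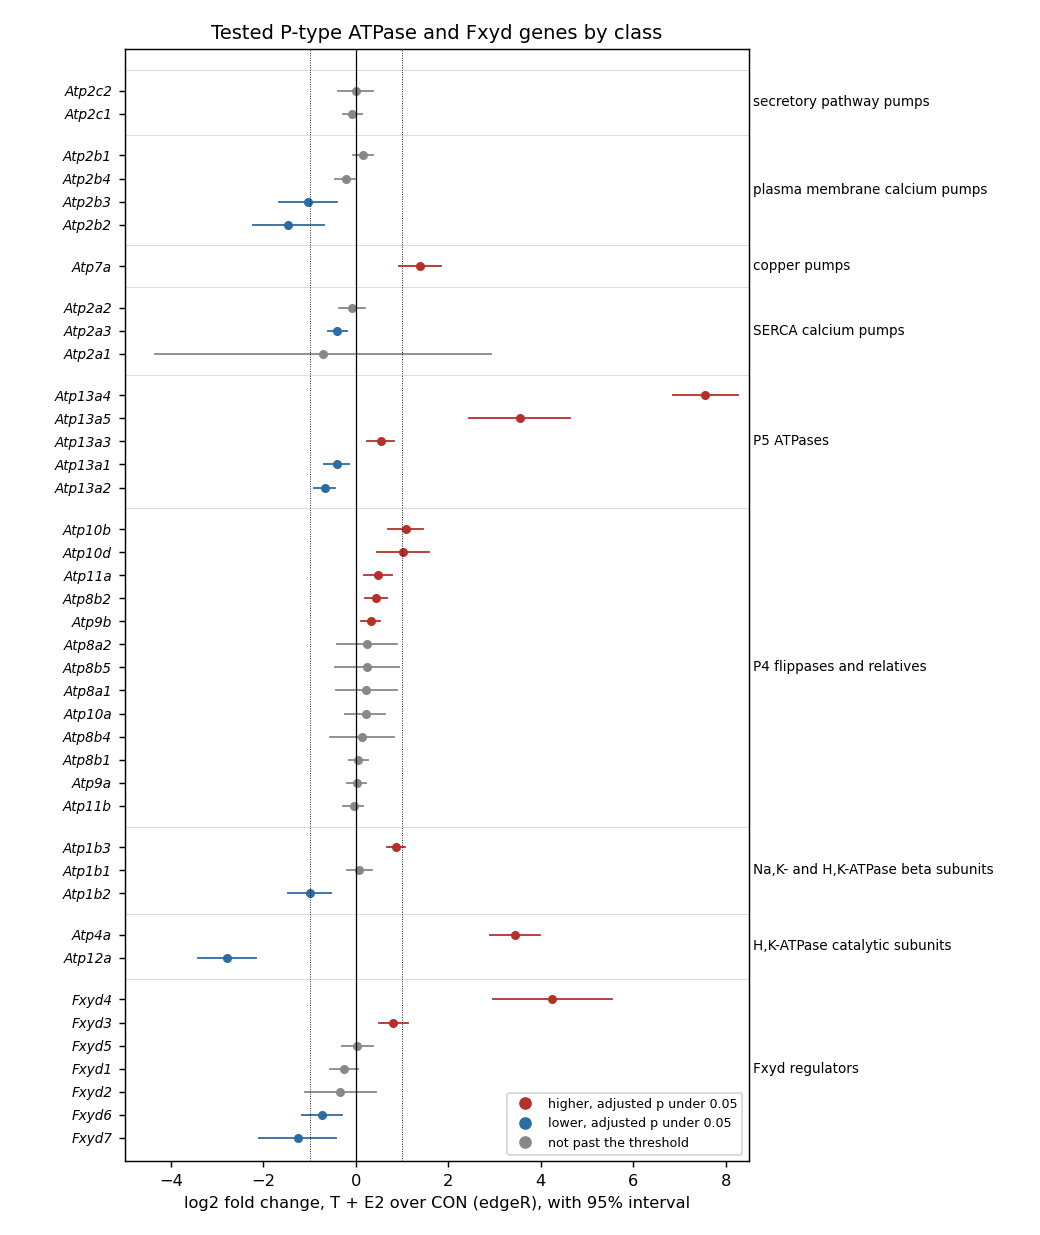
Log2 fold change (T + E2 over CON) of 40 of the 44 tested members by class, with 95% intervals; red points are higher and blue points lower at an adjusted p under 0.05, grey points did not pass, and dotted lines mark -1 and 1. Atp13a4 at 7.56 lies farthest to the right and Atp12a at -2.78 farthest to the left.

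The beta subunits of the sodium pump, which carry the catalytic subunit to the plasma membrane, did not move as a class. Atp1b1, the most abundant beta gene by FPKM, stayed within the spread of the mice, with 466, 522 and 422 CPM in CON and 441, 519 and 520 CPM in T + E2. The log2 fold change of Atp1b1 was 0.07, with a 95% interval from -0.20 to 0.34 (edgeR adjusted p = 0.71). Atp1b3, in contrast, had 102, 99.4 and 102 CPM in CON and 186, 193 and 175 CPM in T + E2. The groups of Atp1b3 were far apart and the mice within each close together, with a log2 fold change of 0.87 ± 0.08 (edgeR adjusted p = 0.000374). Atp1b2, the beta form of glia, fell from 14.7, 12.4 and 9.75 CPM to 5.05, 6.27 and 7.07 CPM, a log2 fold change of -1.0 ± 0.20 (edgeR adjusted p = 0.0117). Without both mice with seminal vesicle transcripts its adjusted p was 0.0908. Atp1b4 had 2 counts in T + E2 replicate 1 and none elsewhere, and the testis catalytic form Atp1a4 had no count in any mouse. On library totals without TMM scaling, 3 counts would have been 0.181 to 0.202 CPM.

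Per length, the summed FPKM of the beta genes was 166 ± 15.6 in CON and 199 ± 16.8 in T + E2. The share of Atp1b1 in that sum was 75.2, 77.8 and 73.7% in the CON mice, above the 62.0, 64.9 and 67.1% of the T + E2 mice, while Atp1b3 held 23.5% ± 2.10 in CON and 35% ± 2.63 in T + E2 (SD, n = 3). The ratio of Atp1b3 to Atp1b1 FPKM was 0.315, 0.275 and 0.347 in CON against 0.609, 0.536 and 0.483 in T + E2, without overlap. Exact two-sided permutation tests of 3 against 3 mice cannot give a p below 0.1, which was the p of the Atp1b1 share (0.125 after Benjamini-Hochberg adjustment over 10 classes), while the beta sum had p = 0.2 (adjusted p = 0.286).

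**Figure D2:**
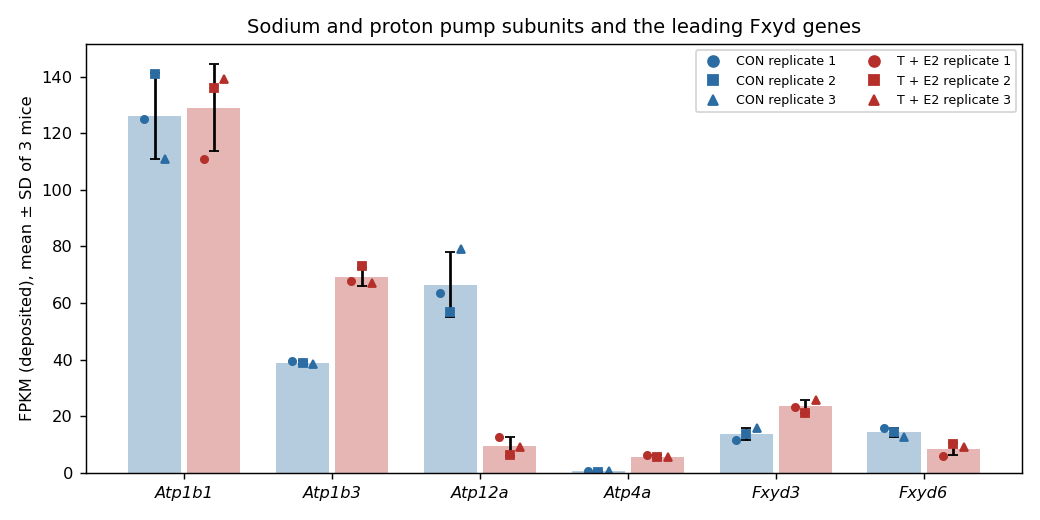
Deposited FPKM of sodium and proton pump subunits and of the leading Fxyd genes; bars are means with SD of 3 mice and symbols are single mice, CON in blue and T + E2 in red. Atp1b1 stays at means of 126 and 129 FPKM while Atp1b3 rises from 38.9 to 69.3 FPKM, and Atp12a drops from 66.5 to 9.40 FPKM.

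The Fxyd genes, whose products bind the alpha and beta complex and tune its ion affinity, split by direction. Fxyd3, an epithelial member, had 89, 105 and 123 CPM in CON and 190, 167 and 199 CPM in T + E2, with no overlap and a log2 fold change of 0.81 ± 0.13 (edgeR adjusted p = 0.005). Fxyd3 overlaps the gene Lgi4 on the opposite strand over part of its length, and whether counting used the strand is not given in the sources used here. Lgi4 itself had a log2 fold change of -0.42 (edgeR adjusted p = 0.203).

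Fxyd4, a kidney and colon member also known as corticosteroid hormone-induced factor, was near the detection limit in CON. Its counts were 4, 7 and 4 in CON against 39, 162 and 96 in T + E2, or 0.251 to 0.460 CPM against 2.70, 9.86 and 6.41 CPM. T + E2 replicate 1 was the lowest of its group but still above each CON mouse. The log2 fold change of 4.25 ± 0.56 (edgeR adjusted p = 0.00177) ranked 67th from the top of the 15580 genes tested. Every CON mouse had fewer than the filter's minimum of 10 counts, so Fxyd4 entered the test through its T + E2 counts.

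Fxyd6 and Fxyd7, both prominent in nervous tissue, were lower in T + E2. Fxyd7 had 4.04, 3.94 and 3.46 CPM in CON and 0.761, 1.64 and 2.34 CPM in T + E2, a log2 fold change of -1.26 ± 0.36 (edgeR adjusted p = 0.0447). Fxyd6 had a log2 fold change of -0.73 ± 0.19 (edgeR adjusted p = 0.0295). When 1 mouse was left out, Fxyd7 kept its call only without T + E2 replicate 3 (highest edgeR adjusted p of the 6 fits 0.115) and Fxyd6 only without T + E2 replicate 1 or 2 (highest 0.0798). Fxyd1 (phospholemman, -0.26), Fxyd2 (the gamma subunit of the kidney sodium pump, -0.34) and Fxyd5 (dysadherin, 0.03) did not pass the test. Fxyd5, Fxyd7 and Fxyd1 lie in a row on chromosome 7, with 31 bases between the first pair and 210 between the second, so reads at their ends can be hard to assign. The summed Fxyd FPKM was 42.1 ± 1.10 in CON and 43.4 ± 5.05 in T + E2, with an exact permutation p of 0.8, while single members moved in opposite directions. Within it the share of Fxyd3 was 32.8% ± 5.71 in CON and 54.5% ± 7.35 in T + E2, whereas that of Fxyd6 was 33.8% ± 3.15 and 19.1% ± 3.42. In CON these 2 shares differed by less than the SD, and their order there depends on the gene length: with exon lengths of the GENCODE annotation the CON shares were 47.8 and 13.6%. The log2 ratio of the summed Fxyd level, 0.04 with deposited lengths, was also larger with those exon lengths.

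The H,K-ATPase genes showed opposite changes. Atp12a, the non-gastric proton pump, had 246, 219 and 315 CPM in CON and 52.9, 25 and 35.7 CPM in T + E2. The lowest CON mouse was well above the highest T + E2 mouse, and the log2 fold change was -2.78 ± 0.27 (edgeR adjusted p = 0.000431). The summed prostate luminal markers were lower in the same mice, and their part in this result was not tested. Atp4a, the catalytic subunit of the gastric proton pump, had 3.84, 1.84 and 2.58 CPM in CON and 33.3, 28.8 and 28.1 CPM in T + E2. The T + E2 mice were close to each other and the log2 fold change of Atp4a was 3.45 ± 0.23 (edgeR adjusted p = 7.0e-05).

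Summed over both H,K-ATPase genes, the level per length was 67.0 ± 11.5 FPKM in CON and 15.2 ± 3.60 FPKM in T + E2, with an exact permutation p of 0.1, the smallest possible (adjusted p = 0.2 over 10 classes). Atp12a made up 99.2% ± 0.321 of that sum in CON and 60.8% ± 7.32 in T + E2. The ratio of Atp4a to Atp12a FPKM was 0.0121, 0.00649 and 0.00631 in CON against 0.486, 0.891 and 0.608 in T + E2. Atp4b, the beta subunit with which Atp4a pairs in the stomach, had 0 counts in all 6 mice. This allows up to 0.202 CPM on library totals without TMM scaling, counting error only.

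**Figure D3:**
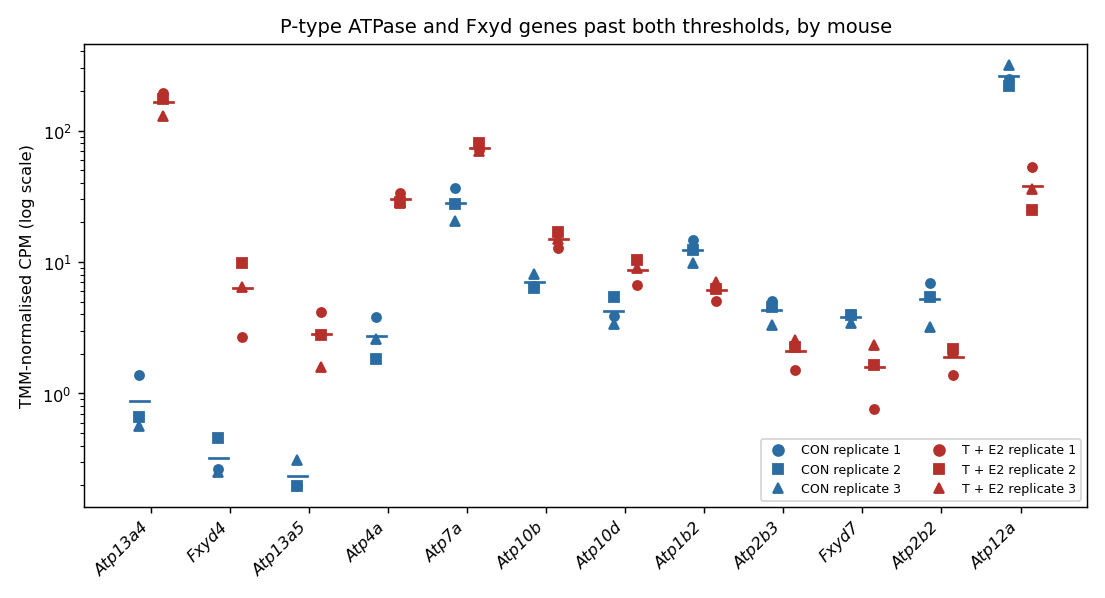
TMM-normalised CPM (log axis) of 12 of the 14 member DEGs; symbols are single mice, CON in blue and T + E2 in red, and short lines are group means. In each of the 12 genes the 3 T + E2 mice lie on one side of the 3 CON mice, from Atp13a4 on the left (0.566 to 1.39 against 128 to 192 CPM) to Atp12a on the right.

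All 5 P5 ATPase genes passed the test (19.6% of all tested genes did), 3 higher and 2 lower. Atp13a1 and Atp13a3 lost their calls in most fits with 1 mouse left out, as given below. Atp13a4, which encodes an endosomal member of the family, had 1.39, 0.657 and 0.566 CPM in CON and 192, 175 and 128 CPM in T + E2. The lowest T + E2 mouse was far above the highest CON mouse. The log2 fold change was 7.56 ± 0.31 (95% interval 6.85 to 8.26; edgeR adjusted p = 7.68e-06), the 14th highest of the 15580 genes tested. Per length, its level in T + E2 was 14.3 ± 2.55 FPKM, beside 19.9 ± 1.68 FPKM for Atp13a3 and 27.5 ± 3.84 FPKM for Atp13a1. With GENCODE exon lengths the order of Atp13a4 and Atp13a3 turned, with 30.1 and 24.0% of the class in T + E2 and 31.9% for Atp13a1. Atp13a5, its neighbour on the chromosome, had 3, 3 and 5 counts in CON and 60, 46 and 24 counts in T + E2. In CPM this was 0.199, 0.197 and 0.314 against 4.15, 2.80 and 1.60, so Atp13a5 remained a low-level gene, with a log2 fold change of 3.54 ± 0.47 (edgeR adjusted p = 0.00189). Both genes had their highest T + E2 value in replicate 1 and their lowest in replicate 3. The filter's minimum count was 10. Atp13a5 was below it in every CON mouse and Atp13a4 in CON replicate 3 (9 counts). Both genes therefore entered the test through their T + E2 counts.

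Atp13a4 (GRCm38, chr16:29395853-29544864) and Atp13a5 (chr16:29231851-29378732) lie on the same strand, with 17120 bases between them. Atp13a3, which encodes a polyamine transporter, lies 767558 bases farther on and rose less, with a log2 fold change of 0.54 ± 0.13 (edgeR adjusted p = 0.022). Opa1, the nearest tested gene on the other side of the Atp13a4 start (34.5 kb away), had a log2 fold change of -0.02 ± 0.08 (edgeR adjusted p = 0.895). The remaining tested genes of the region had log2 fold changes of -0.88 (4632428C04Rik, not called) to 0.17 (Gp5, not called), and Tmem44 was lower with -0.66 (edgeR adjusted p = 0.0301). Whether reads run on from one gene into the other was not tested.

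**Figure D4:**
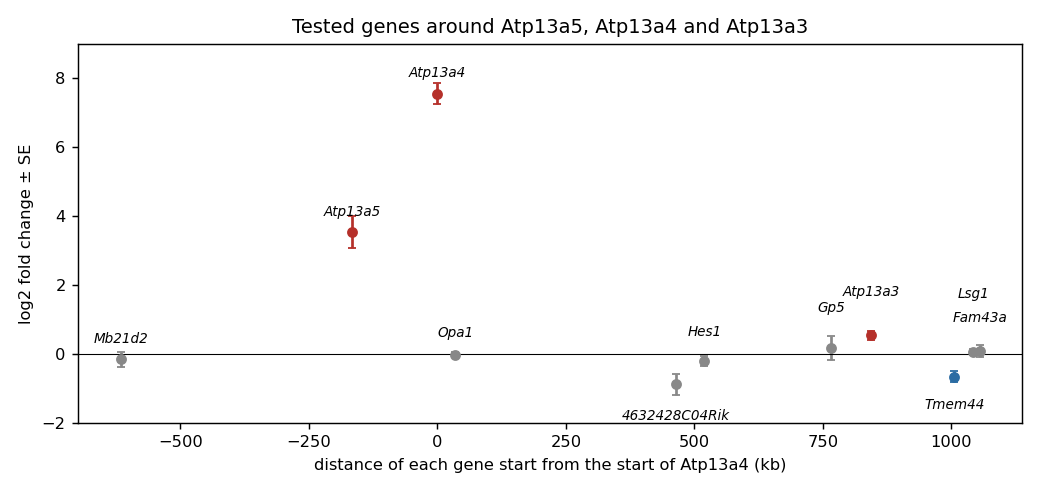
Log2 fold change (T + E2 over CON, ± SE) of the tested genes around the Atp13a5, Atp13a4 and Atp13a3 genes against the distance of each gene start from the Atp13a4 start in kb; red is higher, blue lower and grey not past an adjusted p of 0.05. Atp13a4 (7.56) and Atp13a5 (3.54) stand above neighbours that lie between -0.88 and 0.54.

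The promoter stretches of Atp13a4, Atp13a5 and Atp4a are shown because these genes gained most among the members whose start in the table matched a RefSeq start. Each is the 250 bases before the start on the gene's own strand, 5′ to 3′, from RefSeq on GRCm38.p6, at chr16:29544865-29545114 (minus strand) for Atp13a4, chr16:29378733-29378982 (minus strand) for Atp13a5 and chr7:30711959-30712208 (plus strand) for Atp4a. Capitals mark the estrogen motif core (AGGTCA, or TGACCT on the other strand) and the GC box (GGGCGG, or CCGCCC).
Atp13a4: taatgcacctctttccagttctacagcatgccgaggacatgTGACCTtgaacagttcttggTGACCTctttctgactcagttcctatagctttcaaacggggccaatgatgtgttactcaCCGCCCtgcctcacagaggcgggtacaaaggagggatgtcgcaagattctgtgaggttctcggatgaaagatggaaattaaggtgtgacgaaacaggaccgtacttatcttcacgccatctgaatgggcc
Atp13a5: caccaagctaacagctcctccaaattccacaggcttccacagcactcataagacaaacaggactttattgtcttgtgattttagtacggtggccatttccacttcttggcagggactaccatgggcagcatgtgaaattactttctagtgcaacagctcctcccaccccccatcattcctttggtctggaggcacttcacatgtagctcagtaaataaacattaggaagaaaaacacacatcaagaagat
Atp4a: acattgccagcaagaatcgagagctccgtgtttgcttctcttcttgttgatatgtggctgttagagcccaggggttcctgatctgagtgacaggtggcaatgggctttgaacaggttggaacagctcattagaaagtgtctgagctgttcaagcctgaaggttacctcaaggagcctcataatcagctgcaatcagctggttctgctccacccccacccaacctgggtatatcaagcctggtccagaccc

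In the Atp13a4 stretch the estrogen motif core occurs 2 times on the opposite strand, from -209 to -204 and from -189 to -184 relative to the start, and a GC box lies from -130 to -125. Neither motif occurs in the Atp13a5 or Atp4a stretch. RefSeq also holds a second start of Atp13a4 inside the gene, whose 250 bases (chr16:29541484-29541733, minus strand) held neither motif. Which start was used in these mice was not tested. Over all 32851 RefSeq promoter windows of 300 bases, 16.3% held AGGTCA and 35.7% held a GC box on either strand, so single matches are common. Windows were found for 31 members (41 windows), and none of these held the full estrogen element GGTCANNNTGACC (0.07% of all windows) or the full androgen element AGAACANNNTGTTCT (0.00913%). The androgen core AGAACA was in 3 and AGGTCA in 4 of the 41 windows, against 19 and 16.3% of all windows. A match describes the letters in a window and not a bound site.

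The other members of the P5 family, Atp13a1 and Atp13a2, were lower in T + E2. Atp13a1, which removes misplaced membrane proteins from the endoplasmic reticulum, had a log2 fold change of -0.41 ± 0.12 (edgeR adjusted p = 0.0417), and Atp13a2, a lysosomal polyamine exporter, had -0.67 ± 0.10 (edgeR adjusted p = 0.00276). When 1 mouse was left out, Atp13a1 kept its call only without T + E2 replicate 3 (highest edgeR adjusted p of the 6 fits 0.121), and Atp13a3 only without CON replicate 1 or T + E2 replicate 3 (highest 0.0818). Atp13a1, with 134, 151 and 152 CPM in CON and 111, 94.1 and 122 CPM in T + E2, had the highest mean FPKM of the class and was 54.0, 60.3 and 59.2% of the class FPKM in CON against 37.1, 35.6 and 44.8% in T + E2. Atp13a4 moved from 0.120% ± 0.0642 to 20.4% ± 3.62 of the class. By deposited lengths the summed P5 level changed less, from 65.0 ± 0.474 to 70.2 ± 3.13 FPKM (exact permutation p = 0.1, adjusted p = 0.2 over 10 classes). Its log2 ratio was 0.11, and it was larger with GENCODE exon lengths.

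Of the copper pumps, Atp7a, which loads copper onto secreted enzymes and exports it, was the one expressed. It had 36.8, 27.5 and 20.4 CPM in CON and 71.7, 80.6 and 69.7 CPM in T + E2. All T + E2 mice exceeded all CON mice, with a log2 fold change of 1.39 ± 0.19 (edgeR adjusted p = 0.00235). Atp7b, the liver copper pump, had 6 counts in each CON mouse and 6 to 10 in the T + E2 mice (highest level 0.609 CPM) and was not tested. Among 15 other copper-handling genes, 2 were higher and 2 lower (10.4 and 9.25% of all tested genes). The median log2 fold change of the 15 was -0.09. Steap4, a metalloreductase, was higher (1.03 ± 0.11, edgeR adjusted p = 0.000585) and Mt1, a metallothionein that binds copper and zinc, was lower (-1.24 ± 0.16, edgeR adjusted p = 0.00158).

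Of 15 P4 ATPase genes and relatives, 14 were tested, of which 5 were higher in T + E2 (10.4% of all tested genes were) and 9 did not pass. Atp10b, a glucosylceramide and phosphatidylcholine flippase, had 6.62, 6.37 and 8.17 CPM in CON and 12.8, 16.9 and 15 CPM in T + E2, a log2 fold change of 1.08 ± 0.16 (edgeR adjusted p = 0.00328). Atp10d had 3.91, 5.45 and 3.40 CPM in CON and 6.64, 10.4 and 8.94 CPM in T + E2, a log2 fold change of 1.02 ± 0.25 (edgeR adjusted p = 0.0237). The groups did not overlap in either gene. GENCODE lists Atp10d as a polymorphic pseudogene, whose reading frame is interrupted in the reference mouse strain.

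Smaller gains were measured for Atp11a (0.48 ± 0.13), Atp8b2 (0.43 ± 0.11) and Atp9b (0.32 ± 0.09). In the 6 fits with 1 mouse left out, Atp11a kept its call without CON replicate 1 or T + E2 replicate 2 (highest edgeR adjusted p 0.114), Atp8b2 without CON replicate 2 (0.0703) and Atp9b in none (0.0519 to 0.149), and Atp10d kept its call without CON replicate 2 or T + E2 replicate 1 (highest 0.0849). Atp9a, the member of the class with the highest mean FPKM, was level with 166, 166 and 183 CPM in CON and 178, 161 and 182 CPM in T + E2. Its groups overlapped, with a log2 fold change of 0.02 (95% interval -0.19 to 0.22). The summed P4 level was 74.1 ± 2.57 FPKM in CON and 81.9 ± 2.24 FPKM in T + E2 (exact permutation p = 0.1, adjusted p = 0.2 over 10 classes). Atp8b3 had at most 3 counts in a mouse. Both tested genes of the CDC50 family were higher (10.4% of all tested genes were). Its products are chaperone-like subunits that most P4 ATPases need to leave the endoplasmic reticulum. Tmem30a rose by 0.72 ± 0.10 and Tmem30b by 0.70 ± 0.10 on the log2 scale (edgeR adjusted p = 0.00268 and 0.00305). Both were named here after their values were seen. Of 8 scramblase genes, which move lipids without ATP, 1 was higher (10.4% of all tested genes were). It was Xkr9 (1.20 ± 0.33, edgeR adjusted p = 0.0395).

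Calcium pumps were steadier in their main forms. Atp2a2, the SERCA form of most tissues, had 456, 519 and 600 CPM in CON and 486, 466 and 525 CPM in T + E2, with overlapping groups and a log2 fold change of -0.09 (95% interval -0.37 to 0.19). Atp2a3 had a log2 fold change of -0.40 ± 0.09 (edgeR adjusted p = 0.0162), and lost its call without CON replicate 3 or T + E2 replicate 1 (highest edgeR adjusted p 0.0648). Atp2a1, the fast skeletal muscle form, ranged from 0.0662 to 29.2 CPM within CON and from 0.183 to 21.8 CPM within T + E2. Its high values were in CON replicate 2, CON replicate 3 and T + E2 replicate 3, which also had the highest summed skeletal muscle markers (330, 174 and 278 CPM against 77.4 to 122 CPM in the other mice). The 8 skeletal muscle markers had a median log2 fold change of -0.50, and the part of muscle tissue in the Atp2a1 values was not tested.

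Among plasma membrane calcium pumps the widely expressed Atp2b1 and Atp2b4 did not pass the test. Atp2b1, the highest of the class by deposited FPKM, had 98.6, 97.6 and 87 CPM in CON and 105, 111 and 99.9 CPM in T + E2. Its log2 fold change was 0.16 (95% interval -0.06 to 0.37) although the groups did not overlap, and that of Atp2b4 was -0.22 (95% interval -0.45 to 0.00). With GENCODE exon lengths Atp2b4 led the class in CON, with a share of 49.0% against 42.2% for Atp2b1. Atp2b2 and Atp2b3, forms of excitable tissue, fell. Atp2b2 had 6.95, 5.45 and 3.21 CPM in CON and 1.38, 2.19 and 2.07 CPM in T + E2, a log2 fold change of -1.46 ± 0.33 (edgeR adjusted p = 0.0196). Atp2b3 had 5.03, 4.53 and 3.33 CPM in CON and 1.52, 2.25 and 2.54 CPM in T + E2, a log2 fold change of -1.03 ± 0.27 (edgeR adjusted p = 0.0345). The groups did not overlap in either gene, and with 1 mouse left out both kept their calls only without CON replicate 3 or T + E2 replicate 3 (highest edgeR adjusted p 0.0599 and 0.093).

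The secretory pathway pumps Atp2c1 (-0.08, 95% interval -0.29 to 0.13) and Atp2c2 (0.00, 95% interval -0.39 to 0.38) did not pass the test. Atp2c2, an epithelial form and the leading gene of its class by FPKM, had 81.5, 130 and 106 CPM in CON and 94.9, 105 and 117 CPM in T + E2. Exact permutation p-values of the summed FPKM were 0.2 for SERCA, 1 for plasma membrane pumps and 0.9 for secretory pathway pumps. Of 16 genes for calcium store release and refilling, 3 were higher and 3 lower (10.4 and 9.25% of all tested genes). Calr, which encodes the luminal calcium buffer and chaperone calreticulin, was the only 1 of them with an absolute log2 fold change over 1 (1.03 ± 0.18, edgeR adjusted p = 0.00542).

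Neuron and Schwann cell markers were set beside Atp1b2, Fxyd7, Atp2b2 and Atp2b3, members chosen for this after their values were seen. Of 8 such markers 5 were lower (9.25% of all tested genes were) and 3 did not pass. The markers had a median log2 fold change of -1.08, and none was at 0. Their summed level was 325, 320 and 262 CPM in CON against 76.9, 170 and 158 CPM in T + E2. T + E2 replicate 1 had the lowest marker sum and also the lowest value of each of these 4 members. Smooth muscle markers had 3 of 8 lower (9.25% of all tested genes were). The smooth muscle sums were 4260, 4790 and 5280 CPM in CON and 4080, 3800 and 3740 CPM in T + E2. The part of nerve or muscle content in these results was not tested.

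**Figure D5:**
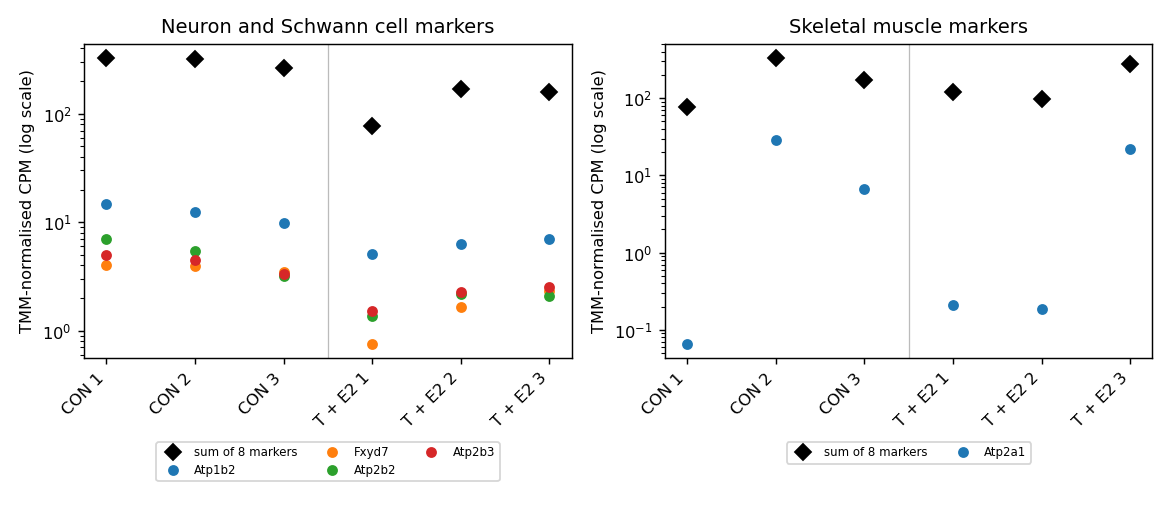
TMM-normalised CPM (log axis) in each of the 6 mice: on the left the sum of 8 neuron and Schwann cell markers (diamonds) with Atp1b2, Fxyd7, Atp2b2 and Atp2b3, on the right the sum of 8 skeletal muscle markers with Atp2a1. T + E2 replicate 1 is lowest in the left panel for the sum (76.9 CPM) and for each gene, and Atp2a1 is above 6 CPM only in CON replicates 2 and 3 and T + E2 replicate 3.

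Genes that work beside the sodium pump were compared last. Of 10 tested genes for Na,K-ATPase interactors and sodium entry, 4 were higher and 2 lower (10.4 and 9.25% of all tested genes). The median log2 fold change of the 10 was -0.04. Scnn1a, the alpha subunit of the epithelial sodium channel, had 22.1, 34.4 and 20.3 CPM in CON and 67.5, 56.6 and 96.2 CPM in T + E2, a log2 fold change of 1.52 ± 0.25 (edgeR adjusted p = 0.00471). Nkain1, whose product interacts with the beta subunit, fell from 9.73, 7.56 and 9.81 CPM to 1.18, 2.01 and 2.60 CPM, a log2 fold change of -2.22 ± 0.29 (edgeR adjusted p = 0.00164). Neither Scnn1a nor Nkain1 had overlapping groups. Of the other channel subunits, Scnn1b was higher (0.97 ± 0.13, edgeR adjusted p = 0.00174) and Scnn1g did not pass (-0.46, edgeR adjusted p = 0.365). Both were named after their values were seen. Of the small SERCA regulators in the table, Pln alone was tested and did not pass (-0.56, edgeR adjusted p = 0.233).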

How the data were processed

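RNA from 6 mouse prostates (3 CON, 3 T + E2) was read as paired-end libraries. The authors deposited whole-number counts per gene, without normalization, and FPKM values scaled by gene length and sequencing depth. The submitters' processing notes name TopHat, Bowtie2 and HTSeq. Versions, genome build, annotation and strand setting are not given in the sources used here. All 49 member identifiers occur in GENCODE M21 (GRCm38), 36 with the same coordinates. The length implied by a deposited FPKM often differed from the GENCODE exon length, so the order of genes by FPKM depends on it.

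Deposited counts were analysed with edgeR 4.0.16 in R 4.3.3. Genes were filtered by filterByExpr (minimum count 10, minimum total 15), scaled by TMM (factors 0.956 to 1.03) and compared by the quasi-likelihood test, fitted on the whole table of 15580 genes. CPM values use TMM library sizes, apart from the limits given for genes without counts. The SE was obtained from the log2 fold change and the F statistic. Class sums and shares used deposited FPKM and exact two-sided permutation tests. BLAST+ 2.17.0+ was used to look for near-identical transcripts (at least 300 bases), and no pair of members was found. On the same strand Atp1b3 matched Gm1848 (96.4% identity over 805 bases), Atp2a2 Gm30970 (99.2% over 362) and Atp2b1 Gm29808 (98.1% over 468). On the opposite strand matches were at 100%: Atp1b1 with Nme7, Atp10b with Gm12144, Atp2a1 with Rabep2, Atp2c1 with Aste1, Atp8a2 with Gm19716 and Fxyd3 with Lgi4. How reads in these stretches were assigned was not tested.

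Named with every mouse were members past both thresholds and the leading member of each class by FPKM, with a few others called by the adjusted p. Partner genes past both thresholds were named with their fold change, and Scnn1a and Nkain1 with every mouse. Results for some members are not reported here, although they are in the counts of members. Members and lists were chosen with earlier results of these data known. Promoters came from RefSeq tables, which held no window for Atp12a. Scripts were tested on simulated data. Alternatives were DESeq2 1.42.0, limma 3.58.1 on log2 FPKM with pseudocounts of 1 and 0.1, other filters, a replicate block, each mouse left out, and, added after seeing the data, GENCODE exon lengths and leaving out both mice with seminal vesicle transcripts.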

Additional observations from a re-analysis of the deposited data

How the results depend on the processing

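Of the 25 called members, 14 were called with every other test and filter under which they were tested, with the replicate block and with each mouse left out, among them Atp13a4, Atp13a5, Atp12a, Atp4a, Atp1b3, Atp7a, Fxyd3 and Fxyd4, and 0 changed sign. Of these 14, Atp1b2 lost its call without both mice with seminal vesicle transcripts, where 9 members were higher, 4 lower and 2 were DEGs that fell. Leaving out 1 mouse at a time gave 9 to 11 members higher, 6 to 10 lower, 6 to 8 DEGs that rose and 2 to 6 that fell. DEGs that rose numbered 5 with a filter of FPKM at least 1, under which Atp10d, Atp13a5 and Fxyd4 were not tested, and with limma on log2(FPKM + 1). DEGs that fell numbered 2 with limma on log2(FPKM + 1) and 3 with limma on log2(FPKM + 0.1), a scale that understates changes of low genes. Replicate numbers did not pair the mice (correlations of same-numbered mice -0.052, 0.028 and 0.046). With the replicate block 5 members were lower, 2 were DEGs that fell, and 9 calls were lost in all (Atp11a, Atp13a1, Atp2a3, Atp2b2, Atp2b3, Atp8b2, Atp9b, Fxyd6 and Fxyd7), while over all genes the calls dropped from 1620 to 1229 higher and from 1441 to 945 lower.

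With GENCODE exon lengths the log2 ratio of summed FPKM was 0.31 for the Fxyd, 0.28 for the P5 and -0.14 for the plasma membrane calcium pump class. With deposited lengths these ratios were 0.04, 0.11 and -0.01. The change in the share of the leading gene, in percentage points, was 15 (Fxyd3), -44.3 (Atp12a) and -8.46 (Atp1b1) from counts, and -45.9 (Atp12a) with GENCODE exon lengths. With deposited FPKM these changes were 21.8 (Fxyd3), -38.4 (Atp12a) and -10.9 (Atp1b1). The settings use the same counts, divided by different gene lengths or by none. The 5 untested members, with at most 10 counts in a mouse, were too shallow for a comparison at this depth.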
